A study of Mus musculus with 2 samples.

Results

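The genes described here carry glucose from the cell surface to pyruvate and lactate, and store and release it as glycogen. The list was fixed by gene name. It holds 35 genes, all of them with counts in both experiments, out of 27443 genes counted in either. They comprise 2 glucose transporters, 2 hexokinases, 6 further genes of upper glycolysis, 9 of lower glycolysis, 2 lactate dehydrogenases, 6 genes of glycogen synthesis, 5 of glycogen breakdown and 3 glycerol phosphate dehydrogenases.

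The samples are single adult cardiomyocytes of wild-type C57BL/6 mice. Hearts were digested with collagenase and protease on a Langendorff apparatus, and cells were sorted with a large-particle sorter into plates for SCRB-seq, a 3′ RNA-seq method in which a unique molecular identifier (UMI) marks each captured molecule. In the chamber experiment, on mice about 3 months old and without fixation, each cell carries one of the labels LA, RA, LV or RV, read here as left and right atrium and ventricle. The fixation experiment holds ventricular cells sorted live and cells sorted after ethanol fixation, from mice whose age is given as adult. A minimum of 1000 gene UMIs and 500 genes per cell kept 56 of 71 LA, 44 of 69 RA, 91 of 96 LV, 90 of 96 RV, 31 of 36 live and 35 of 36 fixed cells. No animal is named, so each label is 1 pool of cells, no difference below has a replicate check, and no test was made.

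Values for the 6 pools follow the order LA, RA, LV, RV, live, fixed unless the pool is named. The pools held 1446262, 733462, 4350660, 5259330, 2069946 and 2848772 gene UMIs. Levels are UMIs per 1000000 nuclear-encoded UMIs (CPM), and intervals are exact 95% intervals that cover counting error only. The atrial markers Nppa, Myl4, Myl7 and Sln had no UMI in the RA pool and took 0.00964% of nuclear-encoded UMIs in LA, where Nppa had none, while 10 ventricular marker genes took 7.02%, 9.38%, 8.19% and 8.60% in the 4 chamber pools. The RA label thus goes against the markers, and so does LA apart from its small Myl7 and Sln counts. The isolation protocol in the labels describes excision of the ventricle, and LA and RA are used below as labels only. Red cell transcripts took 2.68% (LA), 4.99% (RA), 1.21% (LV) and 1.30% (RV). The chamber cells came in 4 libraries, A to D, which share most 6-base barcodes (80 of 84 in all 4), but no full barcode recurred among the 332 labelled cells. Mitochondrially encoded genes, which took 28.3% of gene UMIs in live and 14.9% in fixed cells, are left out of the CPM total.

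Glycolysis splits glucose into pyruvate in the cytosol, and lactate dehydrogenase exchanges pyruvate with lactate. Adult heart muscle draws its energy mainly from fatty acids, with lactate and glucose beside them, takes up glucose through an insulin-regulated transporter, and keeps a store of glycogen. Many steps have a muscle-type isozyme beside a more widely used one, and the balance of the pair is a familiar mark of striated muscle.

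Phosphoglycerate mutase and enolase showed that balance most fully: the muscle genes Pgam2 and Eno3 took nearly all of their pair's UMIs, with values given below. The bases before their annotated starts are shown for comparison with those of the widely expressed partners Pgam1 and Eno1. Each is the 250 bases upstream of a RefSeq start in build GRCm38.p6, written 5′ to 3′ on the gene's own strand, with capitals marking CG dinucleotides. The windows are chr11:5803797-5804046 (minus strand) for Pgam2, chr19:41911621-41911870 (plus) for Pgam1, chr11:70656926-70657175 (plus) for Eno3 and chr4:150236458-150236707 (plus) for the most upstream of the 3 Eno1 starts.
Pgam2: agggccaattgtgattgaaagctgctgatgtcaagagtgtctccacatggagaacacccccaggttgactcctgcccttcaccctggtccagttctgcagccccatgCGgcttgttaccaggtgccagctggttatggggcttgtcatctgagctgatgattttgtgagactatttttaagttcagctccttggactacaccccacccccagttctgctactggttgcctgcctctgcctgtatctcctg
Pgam1: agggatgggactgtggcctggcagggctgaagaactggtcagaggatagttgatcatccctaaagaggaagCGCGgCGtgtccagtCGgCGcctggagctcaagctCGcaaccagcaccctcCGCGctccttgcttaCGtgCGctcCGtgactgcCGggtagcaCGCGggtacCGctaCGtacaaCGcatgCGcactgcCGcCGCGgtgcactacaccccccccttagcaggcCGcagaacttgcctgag
Eno3: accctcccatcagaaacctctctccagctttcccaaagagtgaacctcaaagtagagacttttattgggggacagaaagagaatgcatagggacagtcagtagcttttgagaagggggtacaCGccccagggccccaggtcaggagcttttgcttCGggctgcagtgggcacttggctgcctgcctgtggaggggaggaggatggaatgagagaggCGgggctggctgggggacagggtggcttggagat
Eno1: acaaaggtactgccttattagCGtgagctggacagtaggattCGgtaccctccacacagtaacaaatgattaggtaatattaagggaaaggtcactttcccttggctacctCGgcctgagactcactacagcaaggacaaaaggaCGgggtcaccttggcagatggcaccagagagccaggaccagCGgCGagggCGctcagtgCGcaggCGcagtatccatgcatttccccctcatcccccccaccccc
The Pgam2 window held 1 CG and the Pgam1 window 22. Eno3 had 3, and the 3 Eno1 starts had 9, 21 and 19. The median over all 32851 promoter windows of the table was 6.00. The MEF2 consensus, searched by name on both strands, occurred in 2.92% of all windows, 1 time before Pgam2 and not in the windows of Pgam1, Eno1 and Eno3. The GC box GGGCGG, searched on both strands and holding a CG itself, occurred in 32.7% of all windows. It had no match before Pgam1, Pgam2 and Eno3, and 0, 2 and 3 matches at the Eno1 starts. Low CG content did not mark every muscle isozyme. The window of the muscle hexokinase Hk2 held 25 CGs, against 1 and 14 at the 2 starts of Hk1, whereas Pygm, the muscle glycogen phosphorylase, held 4 and its brain-type partner Pygb 17. A window was found for 33 of the 35 genes. These matches describe letters only.

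Together the 35 genes took 1.30%, 1.50%, 1.39%, 1.36%, 0.550% and 0.609% of nuclear-encoded UMIs. The 2 experiments were done separately, so their levels are set side by side and not compared. From cell to cell the share ran from 0.290% to 2.41% in LV, with a median of 1.48%, and from 0.347% to 1.98% in RV, with a median of 1.46%. The cell medians were 1.33% in LA, 1.27% in RA, 0.631% in live and 0.617% in fixed. By cell median, RA thus lay below LA and fixed below live, the reverse of the pooled shares. Cells rich in ventricular markers were also rich in these genes. The rank correlation of the 2 shares across cells was 0.76 (56 cells), 0.85 (44), 0.57 (91), 0.31 (90), 0.43 (31) and 0.79 (35), with the same total under both shares. Against the red cell share, the rank correlation was -0.35, -0.76, -0.07, 0.01, 0.02 and -0.11. Taking red cell UMIs out of the total moved the RA share from 1.50% to 1.58%.

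**Figure D1:**
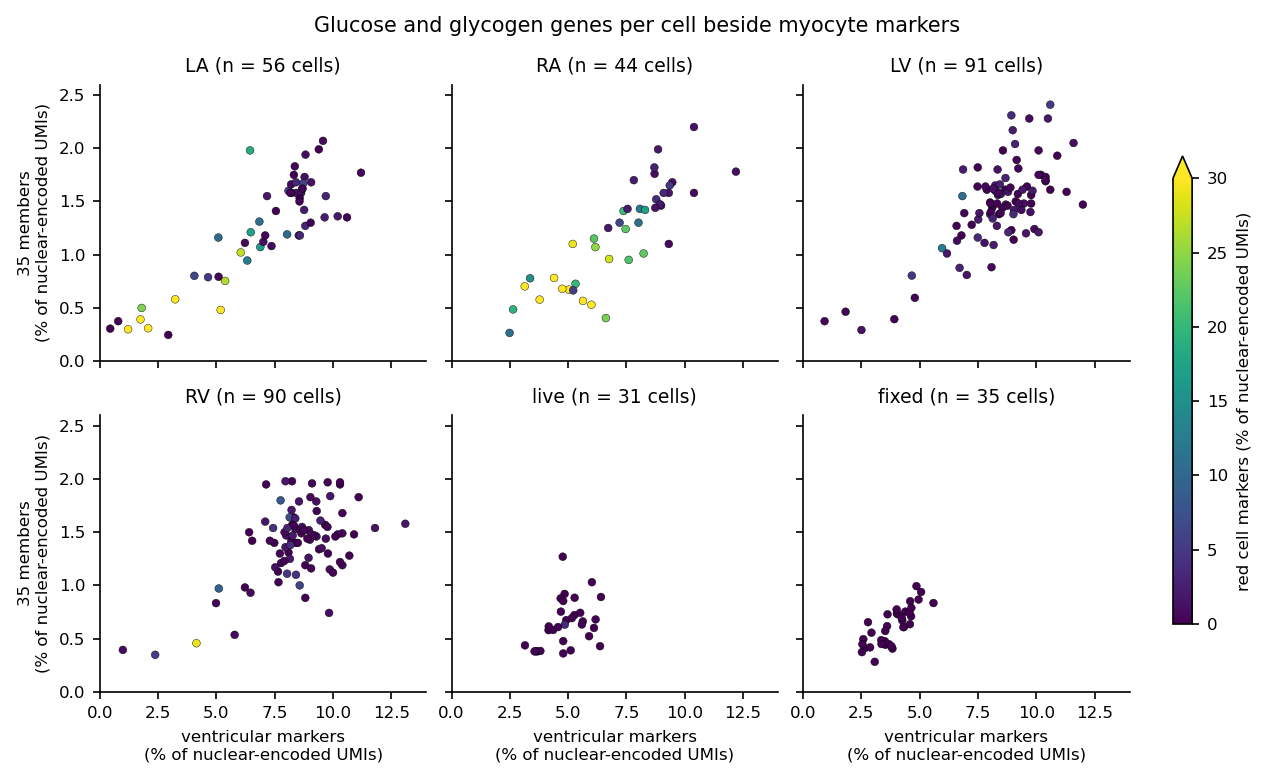
Each point is a cell. The horizontal axis is the percentage of nuclear-encoded UMIs from the 10 genes listed as ventricular markers. The vertical axis is the percentage from the 35 glucose and glycogen genes, and the colour the percentage from red cell genes. Cells with more ventricular marker UMIs tend to hold more of the 35 genes, and the live and fixed pools lie at 0.550% and 0.609%.

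CPM is compared between genes here without scaling by length, because the method counts UMIs at captured 3′ ends. Whether a longer gene span adds to the count was not tested. Lower glycolysis held most of the abundant members. Aldoa, the muscle aldolase, led in every pool, with 2139, 2606, 2489, 2344, 792 and 902 CPM. In LV it ranked 37 among all nuclear-encoded genes. Eno3, the muscle enolase, stood at 1538, 1615, 1475, 1521, 383 and 603 CPM. Pgam2, the muscle phosphoglycerate mutase, stood at 1015, 1199.8, 928, 875, 357 and 429 CPM. All 3 are muscle-type isozymes. Pkm, the pyruvate kinase of muscle and most other tissues, ranged from 725 to 859 CPM in the chamber pools, with 289.8 in live and 356 in fixed. Tpi1, triose phosphate isomerase, ranged from 445 to 515 CPM in the chamber pools. Pgk1, the phosphoglycerate kinase between Gapdh and Pgam2 in the pathway, was far lower, from 67.8 CPM in LV to 111 in RA.

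Gapdh, glyceraldehyde phosphate dehydrogenase, gave 1133, 1298, 1245, 1251, 289.8 and 373 CPM. That level is uncertain. A search for near copies of each gene's last 500 bases (at least 250 bases aligned at 95% identity) found 85 copies of the Gapdh end among other annotated genes. Those copies held 9013 UMIs in the chamber experiment against 8603 for Gapdh itself, and 10928 against 1335 in the fixation experiment. Eno1 and Ldhb each had 1 such copy. The Eno1 copy held 162 UMIs beside 252 for Eno1 in the chamber experiment and 32 beside 82 in the other, and the Ldhb copy 265 beside 10875 and 579 beside 3021. The search found no copy of the other members.

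The lactate dehydrogenases were both abundant. Ldhb, the heart-type subunit, stood at 1410.4, 1740.1, 1517, 1622, 636 and 857 CPM. Ldha, the muscle-type subunit, stood at 533, 538, 547, 518, 161 and 169 CPM. Ldhb was the higher in every pool, in LV with an interval of 1469 to 1565 CPM against 519 to 576 for Ldha.

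At the entry to the pathway the levels were lower. Slc2a4, the insulin-regulated transporter GLUT4, gave 115, 191, 126, 143, 70.1 and 94.9 CPM. Slc2a1, the basal transporter GLUT1, gave 11.8, 42.5, 8.57, 4.02, 6.07 and 3.30 CPM. In RA, 12 of its 20 UMIs came from 1 cell. Hk2, the muscle hexokinase, stood at 136, 213, 189, 188, 156 and 96.5 CPM, above Hk1, the widely expressed hexokinase, at 52.5, 51.1, 62.4, 62.6, 33.0 and 50.3. Gpi1, glucose phosphate isomerase, ranged from 271 CPM in RV to 470.1 in RA among the chamber pools, with 143 in live and 139 in fixed. A long non-coding gene on the opposite strand shares exon bases with Gpi1 and held 39 UMIs in the chamber experiment and 872 in the other, beside 2175 and 550 for Gpi1.

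Phosphofructokinase, the main control point of glycolysis, was carried by the muscle subunit Pfkm, at 466 to 536 CPM in the chamber pools, 214 in live and 251 in fixed. The liver-type Pfkl was at 27.7 to 56.9 CPM in the chamber pools and the platelet-type Pfkp at 18.3 to 34.3. Pfkfb1, one of the bifunctional enzymes that set the level of a phosphofructokinase activator, was at 24.6, 6.38, 24.6, 41.5, 26.3 and 21 CPM. Apex2, on the opposite strand, shares 123 exon bases with Pfkfb1 and held 325 UMIs in the chamber experiment. Pfkfb2, the form best known from heart, had 11 UMIs in the whole chamber experiment and 6 in the other, which is an uncertain measure of its transcript. Same-strand genes cover 70.6% of its span, and one of them, Gm29427, shares exons with it and held 438 and 152 UMIs.

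Overlap on the same strand touches Phkg1 as well, the muscle catalytic subunit of phosphorylase kinase, which activates glycogen phosphorylase. Its count stood at 1061, 1059, 1088, 1059, 614 and 494 CPM. The annotated span of Phkg1 encloses Chchd2, a mitochondrial protein gene on the same strand. Across the annotation, 4 of 381 protein-coding genes enclosed by another on the same strand were counted (1.05%), against 294 of 539 enclosed on the opposite strand (54.5%). Some enclosing genes held large counts. Gm20388, which encloses 36 genes including Cox4i1 and Rpl13, stood at 5935 CPM in the chamber experiment, and Yjefn3, which encloses Ndufa13, at 1479.9. UMIs of Chchd2 and Phkg1 therefore cannot be told apart here. Without Phkg1 and Gapdh, the remaining members took 1.08%, 1.26%, 1.16%, 1.13%, 0.460% and 0.522% of nuclear-encoded UMIs.

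Phka1, the muscle-type regulatory subunit of phosphorylase kinase, encoded on chromosome X, gave 50.3, 48.9, 30.4, 59.6, 106 and 41.7 CPM. Phkb, the beta subunit, gave 43.9, 40.4, 57.3, 47.8, 24.3 and 23.5 CPM. Both phosphorylases, which release glucose phosphate from glycogen, were abundant. Pygm stood at 558, 710.5, 585, 553, 228 and 301 CPM, and Pygb at 336, 323, 442, 377, 206 and 122.

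On the way into glycogen, Pgm1, the main phosphoglucomutase, stood at 159.6, 253, 186, 153, 65.4 and 81.7 CPM. Ugp2, which makes the sugar donor UDP-glucose, ranged from 217 to 285 CPM in the chamber pools, with 196 in live and 157 in fixed. Gyg, glycogenin, the primer on which glycogen grows, ranged from 96.4 to 115 CPM in the chamber pools, with 58.6 in live and 47.8 in fixed. Gys1, the muscle glycogen synthase, stood at 51.4, 21.3, 74.8, 65.2, 22.2 and 33.8 CPM, and Gbe1, the branching enzyme, at 64.3, 80.8, 44.4, 39.5, 51.2 and 33.8. The glycerol phosphate genes were all low. Gpd1, the cytosolic dehydrogenase, ranged from 10.1 CPM in live to 28.4 in LV. Gpd1l, a related protein, ranged from 13.6 in fixed to 44.7 in RA, and Gpd2, the mitochondrial enzyme, from 6.38 in RA to 19.5 in live.

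**Figure D2:**
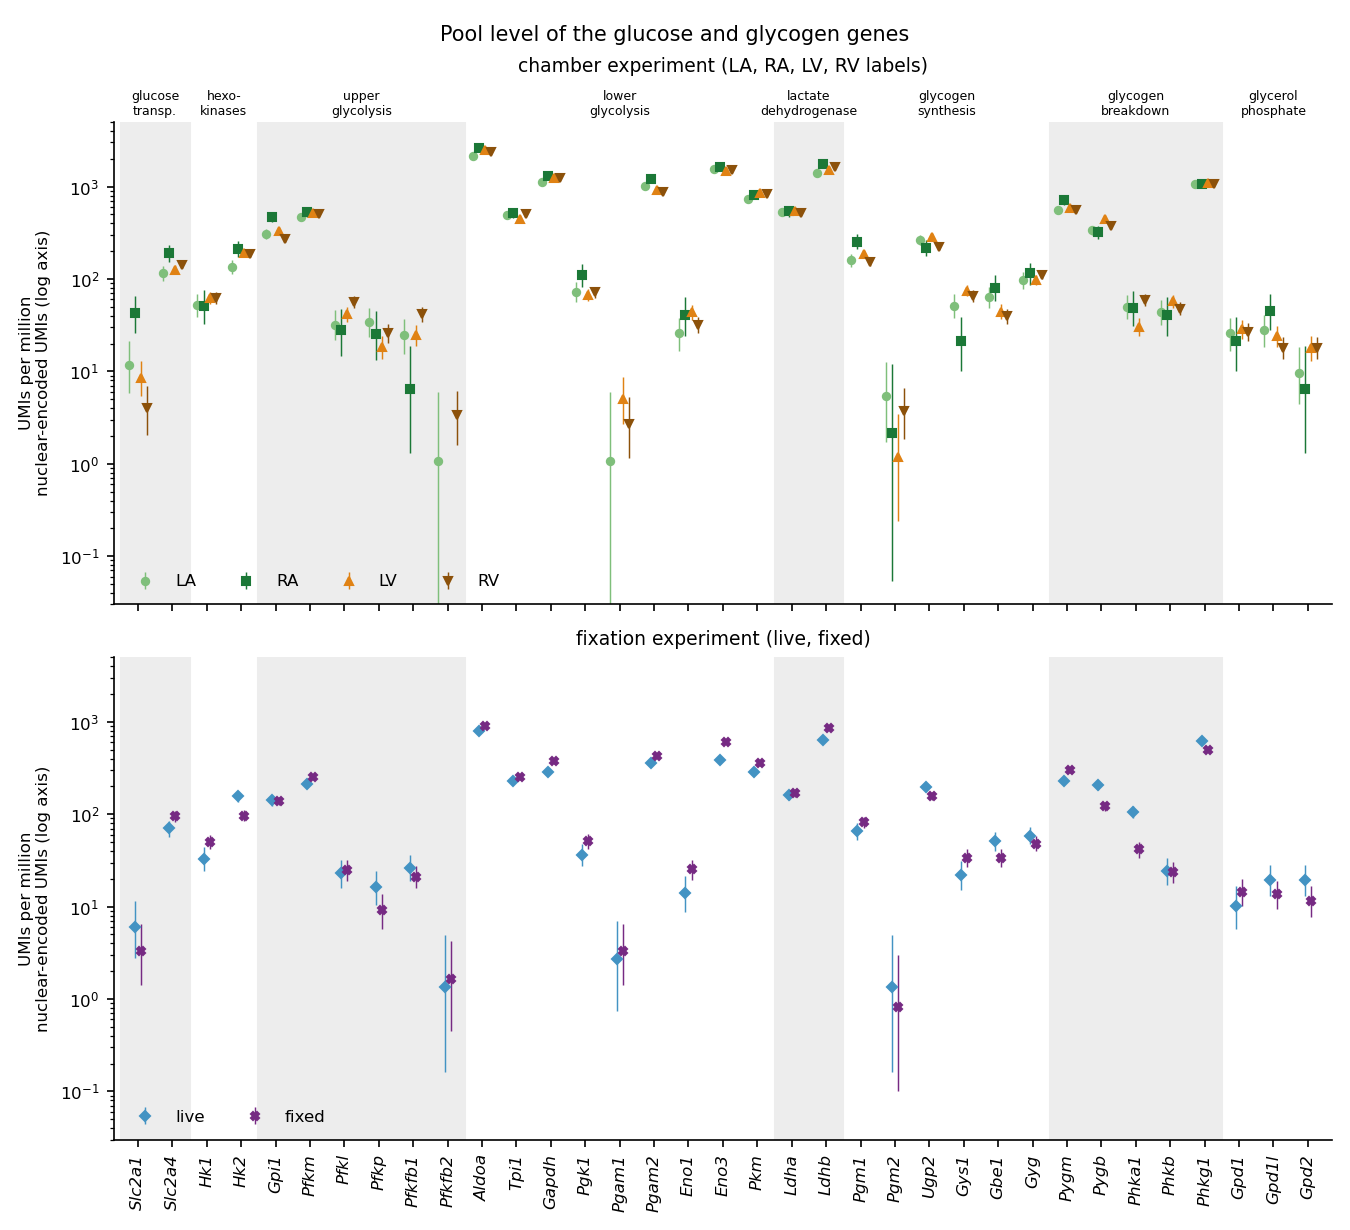
Pool levels of the 35 genes in UMIs per 1000000 nuclear-encoded UMIs on a log axis, grouped by role, with exact 95% counting intervals; pools with no UMI for a gene have no point. The upper panel shows LA, RA, LV and RV and the lower panel live and fixed; Aldoa is highest in every pool, from 792 to 2606 CPM, and Pfkfb2, Pgam1 and Pgm2 lie near the bottom.

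Shares within an isozyme family do not depend on how the pools are scaled. Pgam2 took 99.9%, 100.0%, 99.5%, 99.7%, 99.2% and 99.2% of the Pgam1 and Pgam2 UMIs. Pgam1 had 22 UMIs in the chamber experiment, none of them in RA, and 12 in the other. Eno3 took 98.4%, 97.6%, 97.1%, 97.9%, 96.4% and 96.0% of the Eno1 and Eno3 UMIs, with the limit on Eno1 given above. Pgm1 took between 96.8% and 99.4% of the UMIs of Pgm1 and Pgm2. The same form prevailed in these 3 pairs in every pool.

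Slc2a4 took 90.7%, 81.8%, 93.6%, 97.3%, 92.0% and 96.6% of transporter UMIs. The interval was 73.3 to 88.5 in the RA pool, 90.5 to 96.0 for LV and 95.3 to 98.6 for RV. RA was the lowest, with an interval below those of LV and RV, and without library C its share was 90.6%. Pfkm took 87.5%, 91.0%, 89.8% (88.1 to 91.3 in LV), 85.9% (84.2 to 87.5 in RV), 84.6% and 88.1% of phosphofructokinase UMIs. Among cells with at least 20 family UMIs, the Pfkm share had a median of 94.3% in LV (28 cells) and 89.6% in RV (36 cells). A single RV cell of library C stood at 10.0%, with 3 Pfkm, 13 Pfkl and 14 Pfkp UMIs, and a single LA cell of library B at 17.4%, with 4, 2 and 17. Both were poor in ventricular markers, at 0.983% and 0.441% of nuclear-encoded UMIs, and in the 35 genes, at 0.393% and 0.303%. The RV cell had 0.629% endothelial marker UMIs, the highest of its pool, and the LA cell 0.946% mesothelial marker UMIs, where the highest of its pool was 0.951%. The part of other cells' RNA in these shares was not tested.

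The remaining families were mixed. Hk2 took 72.2%, 80.6%, 75.2%, 75.1%, 82.6% (77.6 to 86.8 in live) and 65.7% (60.5 to 70.7 in fixed) of hexokinase UMIs. Ldhb took 72.6%, 76.4%, 73.5%, 75.8%, 79.8% and 83.6% of lactate dehydrogenase UMIs. Across single cells the Ldhb share was wide, from 38.2% to 96.6% in LV with a median of 72.5% (80 cells), and from 54.1% to 95.3% in RV with a median of 78.0% (80 cells). Pygm took 62.4%, 68.7%, 56.9% (55.0 to 58.8 in LV), 59.5% (57.6 to 61.3 in RV), 52.6% (48.7 to 56.6 in live) and 71.2% (68.3 to 73.9 in fixed) of phosphorylase UMIs. Among cells with at least 20 phosphorylase UMIs, the median Pygm share was 47.4% over 11 live and 75.2% over 22 fixed cells. The live and fixed intervals, which cover counting error only, did not overlap for Hk2, lower in fixed, and for Pygm, higher in fixed. Those of Ldhb met at 82.0, and those of the other families overlapped. Between LV and RV, the Pfkm intervals given above did not overlap either.

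**Figure D3:**
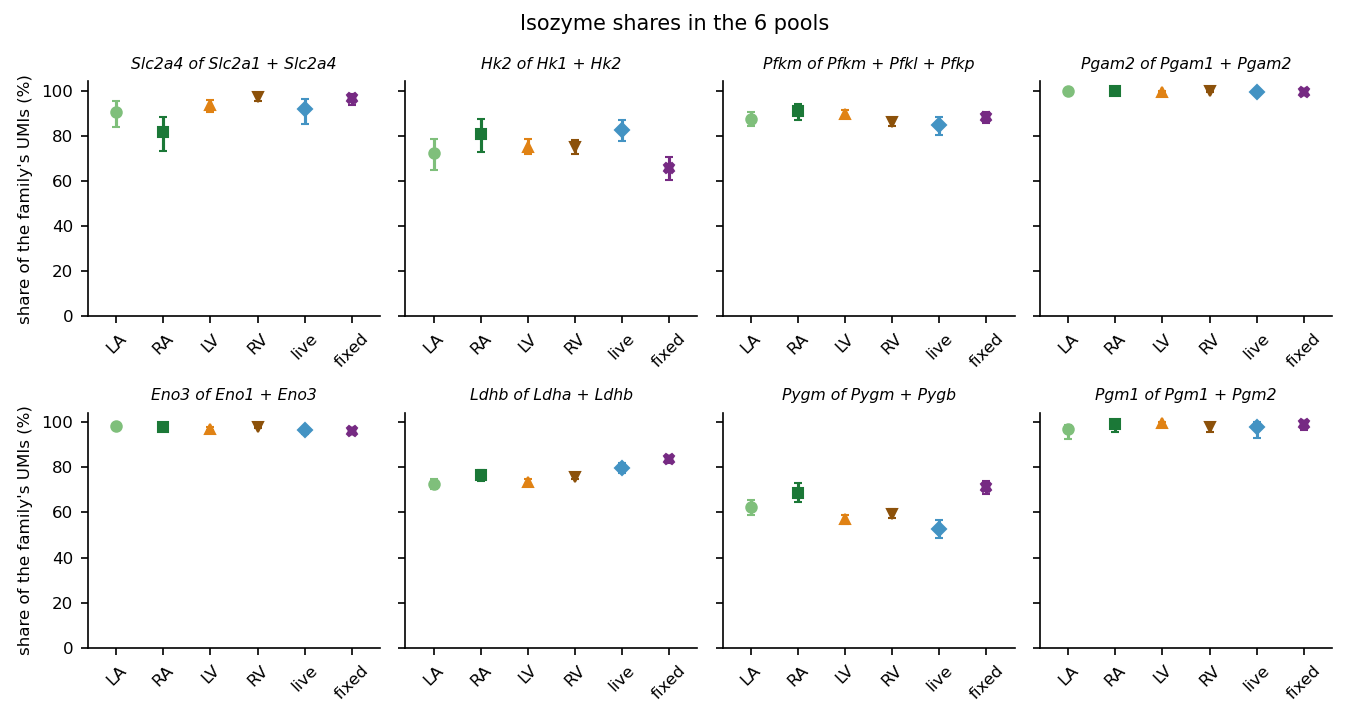
Each panel gives 1 isozyme's share of its family's UMIs in the 6 pools, with exact 95% binomial intervals for counting error. Pgam2, Eno3 and Pgm1 lie at 96.0% or above in every pool, Pfkm between 84.6% and 91.0%, and Pygm between 52.6% in live and 71.2% in fixed.

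LV and RV cells were sequenced side by side in all 4 libraries. The median log2 ratio of LV over RV was 0.055 over the 32 genes with at least 30 UMIs, against 0.040 over the 10812 genes measured. Of the 32, 1 was at least 1.5-fold higher in LV and 2 at least 1.5-fold lower, beside 16.9% of all genes higher and 11.9% lower. Over the members with at least 10 UMIs in the library, the median was -0.26 in A, -0.07 in B, 0.22 in C and 0.22 in D, beside 0.14, 0.05, -0.11 and 0.07 for all genes, so the libraries differed in direction. Pfkm stood at 523 CPM in LV and 503 in RV, Hk2 at 189 and 188, and Gapdh at 1245 and 1251. None of the 8 measured genes of lower glycolysis, and neither lactate dehydrogenase, was 1.5-fold apart.

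Phka1 was the farthest apart of the members with over 100 UMIs. In LV it stood at 23.6 CPM in library A, 40.0 in B, 35.5 in C and 23.4 in D, and in RV at 57.0, 72.4, 49.6 and 61.8. All 4 RV values lay above all 4 LV values. The pools gave 30.4 and 59.6 CPM, 1.96-fold lower in LV (1.49 to 2.59), and the log2 ratio stayed between -1.16 and -0.71 under all 16 alternatives.

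Pfkfb1 stood at 11.8, 25.0, 41.7 and 20.3 CPM in the LV cells of libraries A to D and at 29.3, 32.0, 51.7 and 48.1 in the RV cells. LV was the lower in each library, although the 2 sets overlap. The pools were 1.69-fold apart (1.24 to 2.33), and the log2 ratio was -0.53, short of 1.5-fold, without the cell richest in Pfkfb1, a check chosen after seeing the data. With read counts the difference was also less than 1.5-fold. Phka1 and Pfkfb1 were the members lower in all 4 libraries (6.25% of the 32, beside 5.11% of all genes), and Gpi1 and Pygb those higher in all 4 (6.25%, beside 6.42% of all genes). Gpi1 was 1.23-fold higher in LV (1.12 to 1.35), at 428, 274, 318 and 306 CPM against 353, 251, 267 and 228 in RV. Pygb was 1.17-fold higher (1.08 to 1.28). Slc2a1 was 2.14-fold higher in LV (1.01 to 4.73), on 22 and 12 UMIs and in 2 of 4 libraries.

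**Figure D4:**
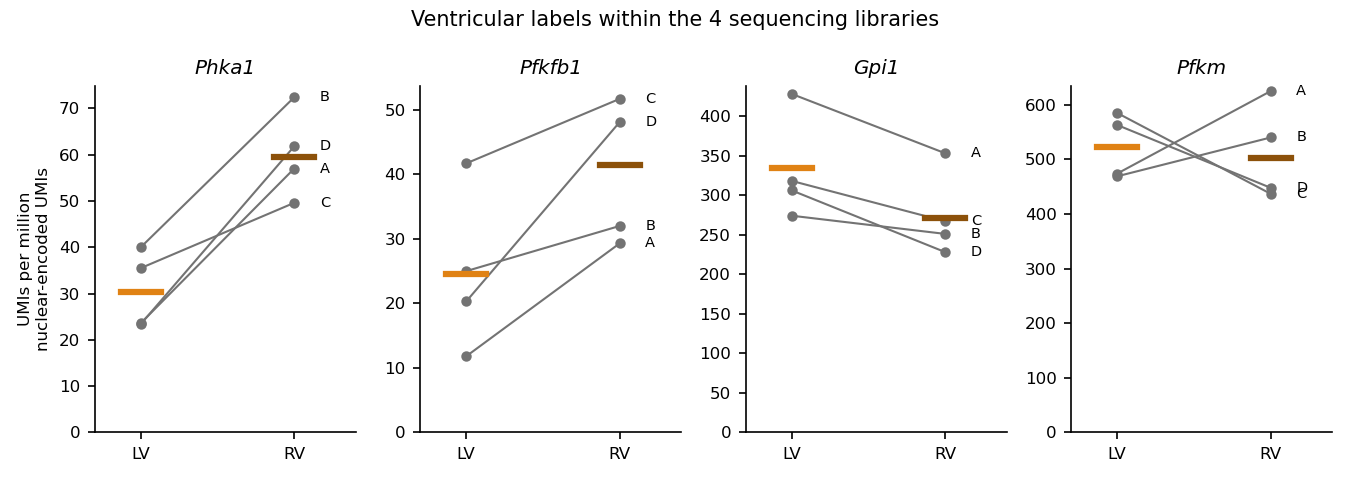
UMIs per 1000000 nuclear-encoded UMIs in LV and RV cells of the 4 libraries (grey points joined by lines, letters naming the library), with the pool level as a coloured bar. Phka1 and Pfkfb1 are lower in LV in each library, Gpi1 is higher in each, and Pfkm, at 523 and 503 CPM in the pools, is higher in LV in 2 of 4.

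Of 58 further pathway genes listed for context, 36 were measured between LV and RV, with a median log2 ratio of -0.057. At 1.5-fold, 3 were higher and 3 lower (8.33% each, beside 16.9% and 11.9% of all genes). Higher in LV were Tbc1d1, a regulator of GLUT4 traffic (59 against 15 UMIs, 4.58-fold, 2.57 to 8.70, in 4 of 4 libraries), Tigar (1.71-fold) and Prkaa1 (1.85-fold). Lower were Ppp1r3b, a subunit that brings phosphatase to glycogen (17 against 63 UMIs, 3.18-fold, 1.84 to 5.80, in 4 of 4 libraries), and the transporters Slc2a8 (2.58-fold) and Slc2a12 (2.81-fold).

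The cells labelled LA or RA were set against those labelled LV or RV. The median log2 ratio was -0.029 over 32 genes, against -0.075 over all 11682. At 1.5-fold, 3 genes were higher under the atrial labels (17.0% of all genes were) and 4 lower (23.2% of all genes were). Slc2a1 stood at 19.6, 8.31, 40.1 and 21.9 CPM in the atrial-labelled cells of libraries A to D and at 17.0, 1.52, 4.44 and 2.19 in the others. It was higher in each library, in D on 2 against 3 UMIs, and 3.61-fold higher in the pools (2.14 to 6.05), on 31 and 34 UMIs. Without library C the log2 ratio was 1.07 in place of 1.85, and without library A it was 3.04. Mesothelial markers took 0.167% and 0.0181% of nuclear-encoded UMIs under the LA and RA labels, against 0.00514% and 0.00679% under LV and RV, and their part in the result was not tested.

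Gbe1 was 1.67-fold higher (1.31 to 2.13) and Gpd1l 1.60-fold higher (1.12 to 2.27), each in 3 of 4 libraries. Without library A both were less than 1.5-fold higher. Gpd1l was so too without library D and with 5 CPM added, and its log2 ratio was -0.19 with each cell weighted equally. Gbe1 was less than 1.5-fold higher without its top cell. Lower were Gpd2 (2.11-fold, 1.15 to 4.21), Pfkfb1 (1.82-fold, 1.20 to 2.86), Gys1 (1.69-fold, 1.28 to 2.26) and Pfkl (1.62-fold, 1.17 to 2.29). Without library C, Pfkfb1, Gys1 and Pfkl were less than 1.5-fold lower, as were Gys1 and Gpd2 with each cell weighted equally and Pfkl with all gene UMIs as the total. Without the cells in which non-myocyte marker genes took over 2% of the total, Pfkl, Pfkfb1 and Gbe1 were less than 1.5-fold apart. Of the 32, Slc2a1, Pfkp and Pygm were higher in all 4 libraries (9.38%, beside 2.63% of all genes), and Pfkl, Pkm and Gys1 lower in all 4 (9.38%, beside 14.7% of all genes). Aldoa, Eno3, Ldhb, Pgam2, Pkm and Pygm were within 1.5-fold.

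Of the further pathway genes, 41 were measured, 8 of them higher and 8 lower (19.5% each, beside 17.0% and 23.2% of all genes). Among those lower in 4 of 4 libraries were the glycogen-binding phosphatase subunits Ppp1r3a (76.2 against 136, 1.79-fold) and Ppp1r3c (53.4 against 90.7, 1.70-fold), and Irs2, an adaptor of the insulin receptor (98.3 against 160.4, 1.63-fold). Ldhd, Pgm3, Epm2a and Tbc1d1 were also lower. Higher were Bpgm, the bisphosphoglycerate mutase of red cells (103 against 55.6 CPM, 1.86-fold), and Slc16a1, a lactate transporter (186 against 118, 1.57-fold), along with Slc2a3, Slc2a8, Phka2, Nhlrc1, Stbd1 and Ppp1r3d. Red cell markers, as given above, were also higher under the atrial labels, and their part in the Bpgm value was not tested.

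Between the 2 atrial labels, library and label are partly mixed, with 23 LA and 11 RA cells in library A, 22 and 8 in B, 6 and 17 in C, and 5 and 8 in D. Of 30 measured genes, 1 was 1.5-fold higher in LA (31.6% of all genes were) and 8 were lower (17.4% of all genes were). The median log2 ratio was -0.20, against 0.11 over all 5715 genes. Over the members with at least 10 UMIs in the library it was 0.03 in A, -0.08 in B, -0.95 in C and 0.47 in D, beside 0.11, -0.39, -0.23 and 0.71 for all genes. The libraries thus differed in direction, and with each cell weighted equally the pooled median was 0.046. Without library C, 5 of 27 measured genes were higher and 2 lower, with no share of all genes computed for that setting. No member was higher in all 4 libraries (6.33% of all genes were), and 1, Gbe1, was lower in all 4 (3.33%, beside 3.81% of all genes).

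The genes lower in LA were Slc2a1 (11 against 20 UMIs), Slc2a4 (115 against 191 CPM), Hk2 (136 against 213), Gpi1 (307 against 470.1), Pgk1 (72.8 against 111), Eno1 (25.7 against 40.4), Pgm1 (159.6 against 253) and Gpd1l (27.8 against 44.7). The intervals of Eno1 (0.814 to 2.99-fold) and Gpd1l (0.858 to 2.97-fold) included equal levels. Without library C, Slc2a4, Hk2, Gpi1, Pgk1, Pgm1 and Gpd1l were less than 1.5-fold lower, and Slc2a1 fell under the minimum of UMIs. Without library B, Gpi1, Pgk1, Eno1 and Gpd1l were less than 1.5-fold lower, as were Hk2 without library A and Eno1 without library D. Without the top cell of each gene, Hk2, Gpi1 and Pgm1 were less than 1.5-fold lower. Pgk1 was so with read counts, with 5 CPM added and without the cell filter, and Eno1 with 5 CPM added. With each cell weighted equally none of these 8 genes was 1.5-fold lower. The RA pool leaned on few cells. Of its 733462 gene UMIs, single cells of library C held 183391 and 137115, and 1 RA cell held 86 of the 221 Gpi1 UMIs. Gys1 was 2.42-fold higher in LA (1.21 to 5.36), on 48 and 10 UMIs, but its log2 ratio was -0.11 with each cell weighted equally. Of the 22 further pathway genes measured, 3 were higher and 5 lower (13.6% and 22.7%, beside 31.6% and 17.4% of all genes). Bpgm stood at 64.3 CPM in LA and 181 in RA, beside the higher red cell share of RA, whose part was not tested.

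In the fixation experiment the members lay above the bulk of the transcriptome after ethanol. The median log2 ratio of fixed over live was 0.15 over the 31 measured genes and -0.38 over all 7860. The distance between the 2 medians, which a scaling factor cannot change, was 0.53, with each cell weighted equally 0.30 and with read counts 0.84. The sign of a single ratio does depend on the scaling: TMM moved the all-gene median from -0.38 to 0.11. At 1.5-fold, 4 genes were higher and 6 lower, beside 10.8% and 40.0% of all genes. With TMM factors these were 17 and 1, beside 27.0% and 21.0% of all genes. With median-of-ratios factors they were 18 and 1, beside 30.0% and 18.9%, and with all gene UMIs as the total 10 and 2, beside 17.5% and 29.9%.

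All 8 measured genes of lower glycolysis had log2 ratios above 0 (2423 of all 7860 genes did), with a median of 0.33. With each cell weighted equally 5 of the 8 did, the exceptions being Aldoa, Tpi1 and Pkm. The limit on Gapdh and Eno1 from near copies, given above, holds here too. Eno3 stood at 383 CPM in live and 603 in fixed, 1.57-fold higher (1.43 to 1.74). With each cell weighted equally the log2 ratio of Eno3 was 0.37, short of 1.5-fold. Eno1 was 1.78-fold higher (1.07 to 3.07) on 61 and 21 UMIs. Aldoa (1.14-fold), Tpi1 (1.11-fold), Pgam2 (1.20-fold), Pkm (1.23-fold), Gapdh (1.29-fold) and Pgk1 (1.41-fold) were less than 1.5-fold higher. Ldhb was 1.35-fold higher (1.25 to 1.46), and the interval of Ldha (0.891 to 1.23) included equal levels.

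The hexokinases parted. Hk2 was 1.62-fold lower in fixed cells (1.35 to 1.95), at 156 CPM in live and 96.5 in fixed, and Hk1 1.52-fold higher (1.09 to 2.17), at 33.0 and 50.3. Their ratio to each other, the Hk2 share given above, does not depend on the scaling, whereas Hk2 alone was less than 1.5-fold lower with all gene UMIs, TMM, median-of-ratios factors and read counts, and Hk1 less than 1.5-fold higher without its top cell, with 5 CPM added and, at a log2 ratio of 0.45, with each cell weighted equally. The phosphorylases parted too, with Pygm 1.32-fold higher (1.16 to 1.51) and Pygb 1.68-fold lower (1.43 to 1.98). Pygb was less than 1.5-fold lower with all gene UMIs, TMM and median-of-ratios factors.

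Phka1, at 106 CPM in live and 41.7 in fixed, was 2.54-fold lower (1.97 to 3.29), and was over 1.5-fold lower under all 12 alternatives. The median cell did not show this drop, at 21.8 CPM in live and 25.0 in fixed. Phka1 had UMIs in 16 of 31 live and 24 of 35 fixed cells, and 1 live cell held 33 of the 157 live UMIs. Gbe1 (1.51-fold, 1.09 to 2.09), Gpd2 (1.69-fold, 0.972 to 2.95) and Pfkp (1.78-fold, 0.957 to 3.33) were lower, each less than 1.5-fold with TMM and median-of-ratios factors. Gbe1 and Gpd2 were so too with all gene UMIs, read counts and 5 CPM added, Gbe1 and Pfkp with each cell weighted equally, and Gpd2 and Pfkp without the top cell. Gys1 was 1.52-fold higher (1.00 to 2.35) on 82 and 33 UMIs, but less than 1.5-fold with 5 CPM added and, at a log2 ratio of 0.44, without its top cell. Slc2a4 was 1.35-fold higher (1.07 to 1.72).

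The ratio went with the length of the gene. Over the 31 genes, the rank correlation of annotated span with the log2 ratio was -0.63, and over 7852 genes of the transcriptome -0.34. All 12 measured members spanning under 20000 bases had log2 ratios above 0, as had 1351 of all 3093 genes of that class. The medians were 0.42 for the members and -0.10 for all genes of the class. The 10 members of 20000 to 50000 bases had a median of -0.16 (all genes -0.37), and the 9 longer ones -0.32 (all genes -0.71). In each class the median of the members lay above that of all genes of like span. Hk2 spans 49430 bases and Pygb 45024, while Pygm spans 14061. Hk1, at 111054 bases, was a long gene that was higher in fixed cells, and Phka1, at 130272, the member farthest below. Between LV and RV the same correlation was 0.03 over the members and 0.02 over all genes.

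**Figure D5:**
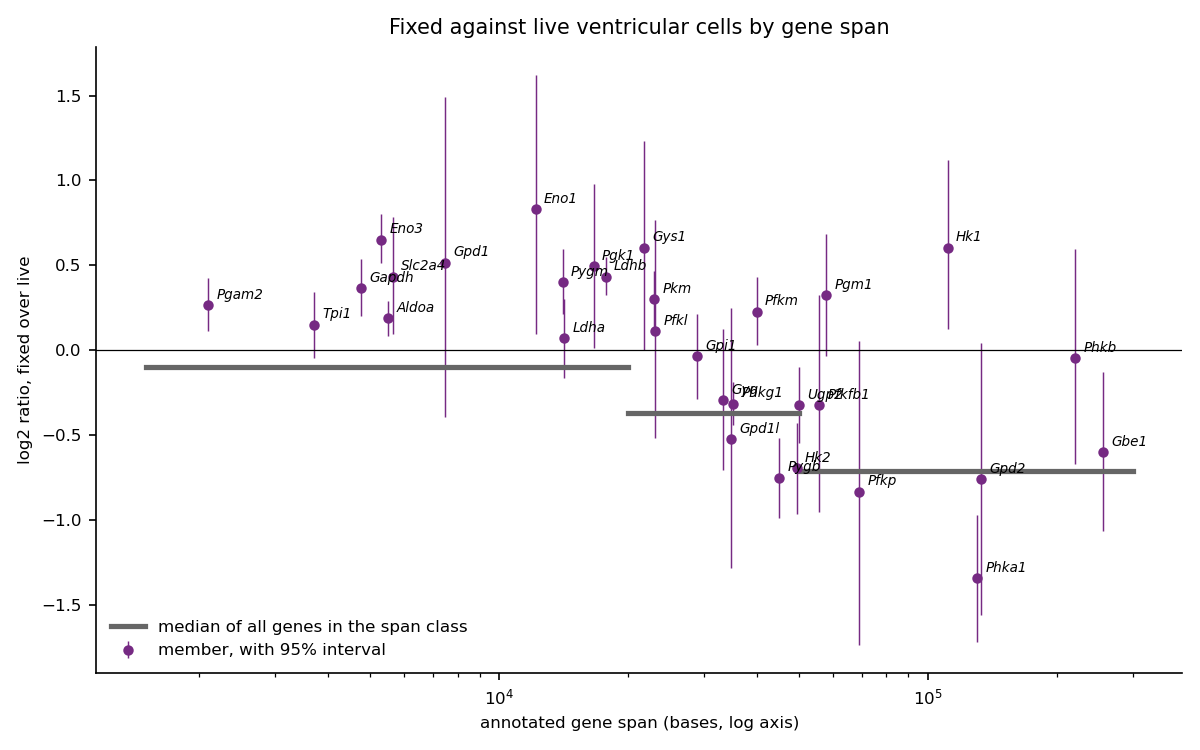
Log2 ratio of fixed over live (vertical axis) against the annotated span of the gene in bases (log axis) for the 31 measured genes, with exact 95% counting intervals; grey bars give the median of all genes in 3 span classes. The 12 genes under 20000 bases all lie above 0, beside 1351 of all 3093 genes of that span, and Phka1 lies lowest, at -1.34.

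The further pathway genes lay nearer the bulk of the transcriptome. Of 27 measured, 1 was 1.5-fold higher in fixed cells, Gsk3a (9 and 30 UMIs in live and fixed), and 13 were lower. These were 3.70% and 48.1%, beside 10.8% and 40.0% of all genes, with a median log2 ratio of -0.50 over the 27. The lower ones included Txnip, an inhibitor of glucose uptake and the most abundant of them (374 CPM in live and 217 in fixed, 1.72-fold), Tbc1d4, a regulator of GLUT4 traffic (165 and 71.8, 2.30-fold), the insulin receptor Insr (149 and 90.3, 1.65-fold), Irs2 (112 and 50.3, 2.22-fold), and Phka2, the liver-type partner of Phka1 (21.6 and 5.36, 4.02-fold on 32 and 13 UMIs). Also lower were Bpgm, Slc2a3, Calm2, Epm2a, Gsk3b, Prkaa2 and Hif1a.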

How the data were processed

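The authors deposited UMI counts and read counts per gene and cell for 2 experiments, with tables of per-cell labels. Per the submitters' processing notes, STAR 2.5.4b, featureCounts and build GRCm38 were used; whether introns counted is not given in the sources used here. Columns without a chamber or fixation label (45) were left out. Gene IDs were named with GENCODE M21 (24489 of 24522 IDs matched in the chamber table and 22648 of 22679 in the other). UMIs of the kept cells were summed per label and divided by nuclear-encoded UMIs, with no pseudocount. Ratios carry exact 95% intervals from the binomial (Clopper-Pearson) limits. PCR copies are removed by the UMIs, but cells of a pool are not replicates, so intervals cover counting error only. A gene was measured with at least 30 UMIs over both pools; a pool at 0 was set to 3 counts. A gene at least 1.5-fold apart was called higher or lower. The interval code was tested on simulated data. Python 3.11.15, scipy 1.17.1 and, for TMM factors, edgeR 4.0.16 were used.

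All 35 genes are accounted for; ratios are named for those 1.5-fold apart and for isozyme families. The further pathway genes are named only where 1.5-fold apart or among the 4 most abundant, and not all of those are named. The genes, the pathway list (58 genes, 54 with counts) and the marker lists were chosen with earlier results of these data known. Doublets were not called, cells having been sorted into plates. Values of some of the further pathway genes are not reported here.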

Additional observations from a re-analysis of the deposited data

Results flagged for a closer look

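Levels and isozyme shares of LV and of RV were compared across the 4 libraries where each library held at least 30 UMIs of the gene or family, which gave 58 sets of 4 values. In 4 of them 1 library stood apart from the other 3 by more than Dixon's 95% limit, which chance passes in about 1 of 20 sets. Slc2a4 in LV cells stood at 178 CPM in library C and at 106, 109 and 112 in the others; without the cell that held the most Slc2a4 UMIs, library C gave 153. The Hk2 share of hexokinase UMIs in RV cells was 62.7% in library C and 78.3%, 79.7% and 80.7% in the others, and 64.6% without the cell of low Pfkm share described above. The Pgam2 share in LV cells was 97.9% in library B and 99.7% or more in the others. Of the 13 Pgam1 UMIs in LV, 9 were in library B, and 1 cell held 7. In RV cells the Pgam2 share was 99.2% in library D and 99.8% or more in the others. Of the 8 Pgam1 UMIs in RV, 4 were in library D, and 1 cell held 3.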

How the results depend on the processing

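No paired analysis was possible because the labels number no replicates and name no animals, so LV and RV cells of 1 library are set side by side without a test. Single-gene log2 ratios under the alternatives were set against their counting interval. They stayed within it in 451 of 507 values for LV against RV and 441 of 511 for atrial against ventricular labels. For LA against RA 375 of 450 values did so, and for fixed against live 276 of 364. The minimums of 10 and 100 UMIs per gene cannot change a single-gene ratio, so their values lie within the interval by construction. Isozyme shares stayed within their interval in 275 of 320 values. The number of genes 1.5-fold apart in LV against RV, 3, became 7 with read counts, 6 with genes of at least 10 UMIs, 6 without library B and 1 when each gene's richest cell was left out (a check chosen after seeing the data), and the median became -0.045 with median-of-ratios factors. The atrial against ventricular median became -0.26 with cells weighted equally. For LA against RA, 9 genes became 5 with cells weighted equally (median 0.046), 16 with read counts, 5 with at least 100 UMIs and 4 without library B. For fixed against live, the median was 0.39 with all gene UMIs, 0.64 with TMM, 0.71 with median-of-ratios factors, -0.053 with cells weighted equally and 0.61 with read counts, and the 10 genes became 18, 19 and 19 with TMM, median-of-ratios factors and read counts and 6 with 5 CPM added. Called log2 ratios that changed sign with cells weighted equally were Gpd1l for atrial against ventricular labels (-0.19), Slc2a1 (0.53), Hk2 (0.46), Pgk1 (0.02), Gys1 (-0.11) and Gpd1l (0.66) for LA against RA, and Gbe1 for fixed against live (0.04); Gpd1l was 1.39 for LA against RA with read counts. The causes were not tested. The counts given here for other settings mostly have no share of all genes computed beside them. The exceptions are fixed against live with all gene UMIs, TMM and median-of-ratios factors. Depth limits RA most, where 3 UMIs correspond to 6.38 CPM, against 1.00 in RV.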
